A study of Mus musculus with 16 samples.

Results

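The replication-dependent histone genes encode the proteins that wrap newly made DNA: H2A, H2B, H3 and H4 form the nucleosome core, and the H1 linker histones bind the DNA between cores. All genes of the mouse whose symbol starts with Hist1h, Hist2h, Hist3h or Hist4h were taken, 70 of the 52542 rows of each count table. They comprise 6 H1, 20 H2A, 19 H2B, 12 H3 and 13 H4 genes, and Hist1h2bc, an H2B gene, was described apart from its class. In kept cells the 70 genes gave 23636 of 10437310 UMIs (unique molecular identifiers, counting captured molecules), or 0.226%.

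The cells came from mouse bone marrow, strain C57BL/6J. Regnase-1-/- Regnase-3-/- fetal liver cells (CD45.2) and control fetal liver cells (CD45.1) had been mixed 1:1 and given to lethally irradiated CD45.1/CD45.2 recipients. LSK cells (Lin- Sca1+ Kit+, the stem and early progenitor compartment) were sorted singly 4 weeks after transplantation and profiled by MARS-seq, a plate-based method that counts 3′ ends of mRNA. By their labels the 16 libraries form 1 group, with a genotype for neither library nor well, so mutant and control cells could not be compared, and each library may hold both and remaining host cells. The labels do not say whether libraries come from separate recipients, so p-values refer to these libraries alone, whose differences may be technical.

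Comparisons were therefore made between cells of the same libraries. A cell was kept with at least 500 UMIs without spike-ins and a mitochondrial share under 20%, which left 5157 cells, 295 to 345 per library, with 500092 to 810096 UMIs per library and a median of 1146 to 1993 UMIs per cell. Cell cycle states were cut in the 3840 kept cells with at least 1000 UMIs, thinned to 1000, from 30 S phase genes and 24 G2/M genes that hold no histone gene. A cell was called high for a list when its UMIs of that list lay above the upper tertile of its library. This gave 865 cells high in S genes alone (S-high), 250 high in both lists (S- and G2/M-high), 942 high in G2/M genes alone (G2/M-high) and 1783 high in neither. The Kit and Ly6a genes behind the sort summed to a median of 400 CPM (UMIs scaled to the library total; range 301 to 463), against 24.1 CPM (11.02 to 55.3) for 10 genes of mature blood lineages. No well name occurred in more than 1 library. The 60 wells listed as empty held 801 UMIs and none of a histone gene, which allows a share of up to 0.375%, above the 0.226% of kept cells, so these wells set no useful limit on free histone RNA.

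Replication-dependent histone mRNAs are made mainly in S phase, when chromatin must be doubled, and are removed as DNA synthesis ends. Most mRNAs end in a poly(A) tail, whereas these normally end just after a short stem-loop that binds the protein SLBP, which carries them through processing, translation and decay. Some genes of the clusters can also give polyadenylated transcripts outside S phase. In blood-forming tissue, where stem cells divide rarely and progenitors often, they mark dividing cells. MARS-seq primes on A-rich RNA, so the counts cover transcripts such a primer can bind, and how much of the histone mRNA that is was not tested.

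The stem-loop is shown because it is the feature that sets this family apart from nearly all other mRNAs. The letters GGC, any base, CTTTT, any base, AG, any base, GCC, searched on the sense strand of GENCODE M21 transcript models (build GRCm38), were found in the models of 42 of the 70 genes and in 3 of 58725 other protein-coding models (0.0051%). They were in 4 of 6 H1, 11 of 20 H2A, 10 of 19 H2B, 8 of 12 H3 and 9 of 13 H4 genes. Models without the letters, such as those of Hist1h1a, Hist1h1b, Hist1h2ak and Hist1h2bc, do not hold them in the annotated stretch. The most counted genes that carry them follow with 14 bases upstream, sense strand, 5′ to 3′, the 16 stem-loop bases in capitals.
Hist1h2ao: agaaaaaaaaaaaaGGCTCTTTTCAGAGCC
Hist1h2ap: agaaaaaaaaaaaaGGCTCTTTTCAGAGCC
Hist1h1e: cccaacaacccaaaGGCTCTTTTCAGAGCC
Hist1h1c: ctaacaatccaaaaGGCTCTTTTCAGAGCC
Hist1h2ae: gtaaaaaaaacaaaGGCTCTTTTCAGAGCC
Hist1h4d: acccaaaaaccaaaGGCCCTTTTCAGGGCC
Hist1h4i: caatgctacttaaaGGCCCTTTTTAGGGCC
The stem-loop letters were the same in the 5 H1 and H2A genes shown, and the 2 H4 genes had other letters. Hist1h2ao and Hist1h2ap had 12 consecutive A bases before the stem-loop, and their models shared 93.9% of the 25-base words of Hist1h2ao with Hist1h2ap. Reads of these near-identical copies may have been split by the authors' counting, so the level of each alone is uncertain.

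Transcripts of H2A genes made up most of the histone signal. Over the 16 libraries H2A summed to a median of 1476 CPM (1287 to 1768), H1 to 435 CPM (204 to 807) and H4 to 115 CPM (89.7 to 172). Hist1h2bc stood at 72.0 CPM (36.8 to 108), above the other 18 H2B genes together at 43.7 CPM (19.5 to 61.6) by median, with ranges that overlap, and, likewise by median with overlap, above the 12 H3 genes together at 22.2 CPM (13.9 to 51.5). UMIs count 3′ ends, so no length was divided out. The H2A share of histone UMIs was 67.2%, H1 21.2%, H4 5.41%, Hist1h2bc 3.21%, the other H2B genes 1.83% and H3 1.16%. Apart from Hist1h2ao, the other 19 H2A genes together held 12.3%, at a median of 277 CPM (205 to 420). That is below H1 by median, with ranges that overlap.

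A single gene, Hist1h2ao, held 54.9% of all histone UMIs. It lies on the plus strand of chromosome 13 at chr13:21810465-21810944 (GRCm38) and was measured at a median of 1232 CPM (1083 to 1482). Its lowest library lay above the highest of any other histone gene. The next in order were the linker histone genes Hist1h1e at 182 CPM (66.0 to 341) and Hist1h1b at 105 CPM (38.0 to 235). Below them came Hist1h2ap at 79.6 CPM, Hist1h2bc at 72.0 CPM, Hist1h1c at 62.9 CPM, Hist1h4d at 48.7 CPM, Hist1h4i at 46.6 CPM and Hist1h2ae at 44.7 CPM, neighbours whose library ranges overlap. The remaining H1 genes Hist1h1a and Hist1h1d had medians of 34.8 and 31.6 CPM. Hist1h2ak, Hist3h2a, Hist1h2an, Hist2h2ac and Hist1h2af, all H2A genes, had between 108 and 270 UMIs in all.

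Of the 70 genes, 63 had a UMI in kept cells, 16 had at least 100 and 47 had 1 to 99. The 7 at 0 were Hist1h2ba, Hist1h2bf, Hist1h3c, Hist1h4a, Hist2h2aa1, Hist2h3c2 and Hist3h2bb-ps; a count of 0 over all kept cells allows up to 0.287 CPM by counting error alone. The germ line linker gene Hist1h1t had 2 UMIs. No H3 gene reached 100 UMIs.

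**Figure D1:**
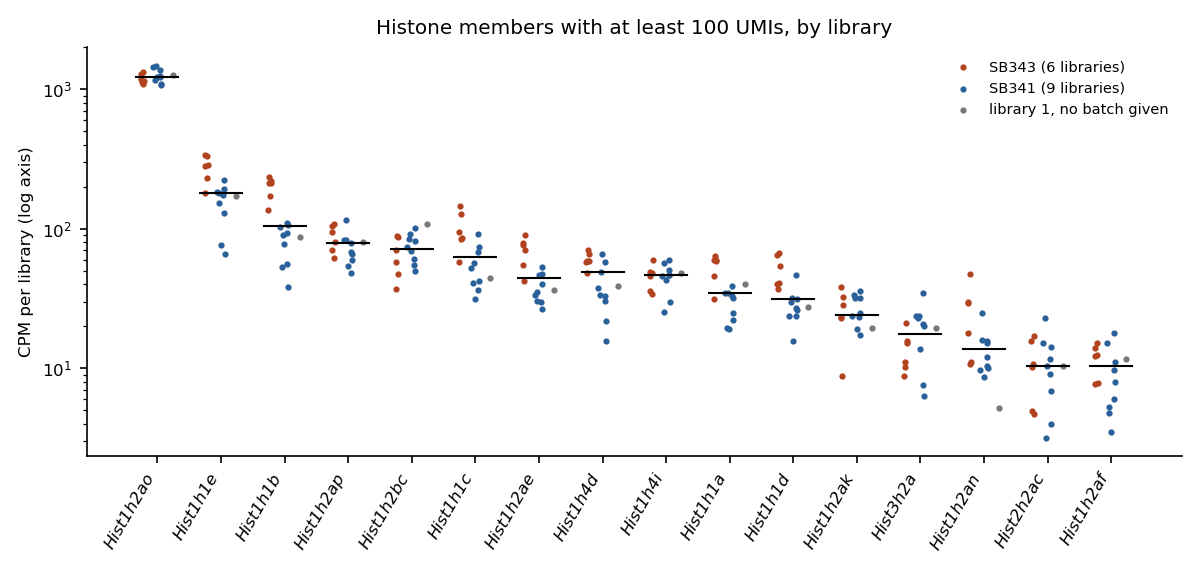
Level of the 16 histone genes with at least 100 UMIs, in CPM on a log axis, one point per library coloured by sequencing batch, with the median over 16 libraries as a bar. Hist1h2ao lies above all others in every library at 1083 to 1482 CPM, and the H1 genes reach higher in the SB343 libraries.

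Most of the signal came from one stretch of chromosome 13, and most of that from Hist1h2ao alone, with 12974 of its 15869 UMIs. The other genes of that stretch together held fewer UMIs than the next stretch named, which had 6375. The 19 genes between 21715763 and 21837530 held 67.1% of histone UMIs, the 31 genes between 23531050 and 23934851 held 27.0%, 5 genes between 22035164 and 22043676 held 3.097% and 1 gene elsewhere on the chromosome held 0.322%. The 10 genes on chromosome 3, 3 on chromosome 11 and 1 on chromosome 6 held 1.55%, 0.808% and 0.110%. Several H2A genes overlap models on the other strand (Gm19658 for Hist1h2ao, Gm44466 for Hist1h2ap and Gm44346 for Hist1h2an), and the Hist1h1e model overlaps Hist1h2be and Gm11398 on its own strand. Whether the counting used strand is not stated in the sources used here, so reads of such pairs cannot be told apart; Gm44346 itself passed the tests below in S- and G2/M-high cells (log2 fold change 1.85 ± 0.32) and G2/M-high cells (1.36 ± 0.19).

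Promoters of many genes of the family shared short letter groups. Whether these letters bear on the comparisons below was not tested. In RefSeq promoters (GRCm38.p6, 250 bases before to 50 after the start, both strands searched), 62 of the 70 genes had an entry. Hist1h2bc had none. CCAAT was in 53 of the 62 against 37.4% of all promoters and TATAAA in 35 against 13.6%; CCAAT was in all 6 H1, 18 H2A, 16 H2B and 10 H3 promoters and in 3 of 12 H4 promoters. The octamer ATTTGCAT was in 7 of 18 H2A and 6 of 16 H2B promoters and in no H1, H3 or H4 promoter, against 1.74% of all promoters. Promoter stretches of neighbouring H2A and H2B genes on opposite strands can overlap, as for Hist1h2ae and Hist1h2bg. The same letters can then count in both classes, for CCAAT and TATAAA too, so the class counts are not separate. AAACACA was in 5 of 6 H1 promoters against 7.18% of all. Hist1h1a lacked it, and Hist1h2ao and Hist1h2ap lacked both TATAAA and the octamer. These letter groups do not overlap one another in the stretches shown, where capitals mark the match, in its own orientation for AAACACA and as its reverse complement for the octamer.
Hist1h1e: aggtgtaacAAACACAactccgcat
Hist1h1b: gggactaacAAACACAatttgggat
Hist1h1c: aagtgtaacAAACACAagttgggcg
Hist1h2ae: agaggttctATGCAAATaagggactc
The matches begin at positions -115, -117 and -112 from the start of Hist1h1e, Hist1h1b and Hist1h1c and at -128 from that of Hist1h2ae. A match describes letters only.

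Histone transcripts were spread unevenly over cells. At 1000 UMIs per cell, 47.9% of the 3840 cells held no UMI of the 69 genes other than Hist1h2bc, the median cell held 1 and the highest 16. The 10% of cells with the most held 44.4% of these UMIs, and 101 cells (2.63%) held 10 or more. Of those 101 cells, 34.7% were G2/M-high, 24.8% S-high, 17.8% S- and G2/M-high and 22.8% high in neither list, against 24.5%, 22.5%, 6.51% and 46.4% of all 3840 cells. Hist1h2bc was found in 195 cells, of which 67.7% were high in neither list. Cells with a Hist1h2bc UMI held 1.08 other histone UMIs on average and cells without 1.957; the mean was lower with Hist1h2bc in 14 of 16 libraries. The share of cells with no other histone UMI was 48.2% with Hist1h2bc and 47.8% without.

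The summed mean of the 69 genes, mostly H2A UMIs, was higher in cells with UMIs of either cycle list than in cells with none. Over cells binned by G2/M list UMIs, the mean of the 69 genes was 0.654 UMIs per 1000 in cells with none, 2.47 in cells with 2, 3.74 in cells with 6 to 7 and 2.51 in cells with 11 or more. Over bins of S list UMIs it was 1.12 in cells with none, 2.23 in cells with 3, 2.65 in cells with 8 to 10 and 2.04 in cells with 11 or more. The means thus peaked in a middle or late bin of each list and were lower in the last, which held 106 and 96 cells. Hist1h2bc ran the other way along the S list, with 0.214 UMIs per 1000 in cells without S list UMIs, 0.0437 in cells with 4 to 5 and 0 in the 96 cells with 11 or more; along the G2/M list it was 0.107 in cells with none and 0.0566 in cells with 11 or more.

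**Figure D2:**
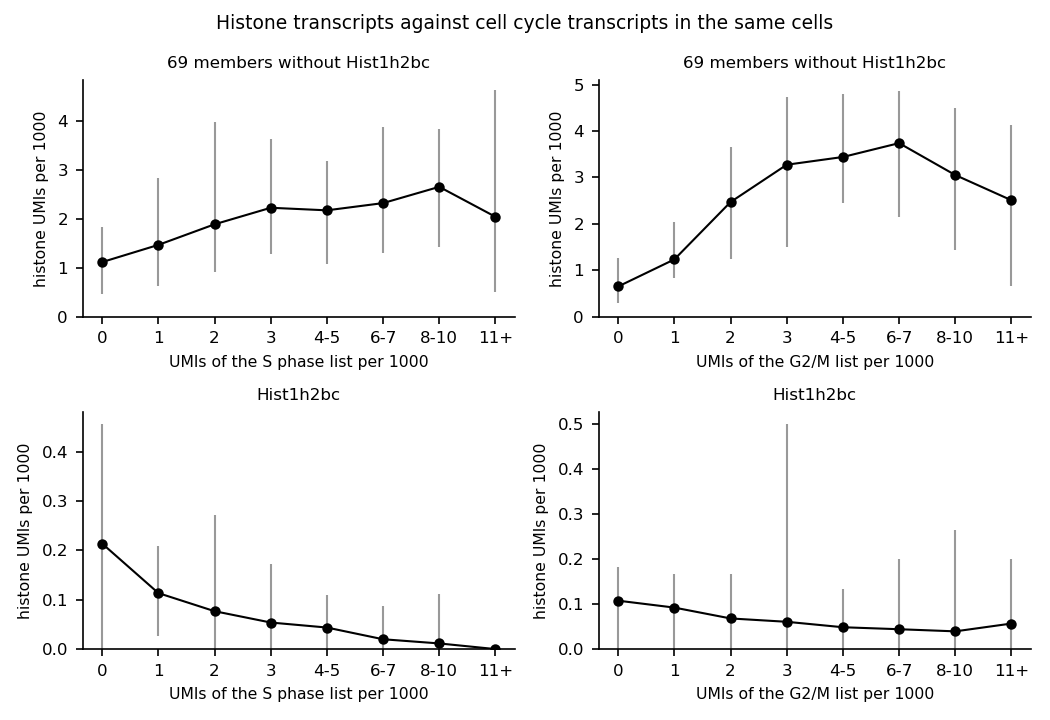
Mean histone UMIs per 1000 UMIs (points joined by a line) in cells binned by UMIs of the S phase list (left) and of the G2/M list (right), for 69 histone genes (top) and for Hist1h2bc (bottom); grey bars span the library means of libraries with at least 5 cells in the bin. The 69 genes peak at 3.74 in cells with 6 to 7 G2/M UMIs, and Hist1h2bc falls to 0 in cells with 11 or more S UMIs.

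Of 3468 genes with at least 500 UMIs, those whose log2 level followed the 69 summed genes most closely over 5157 cells were Hmgb2 (Pearson r = 0.43), Mki67 (0.42), Top2a (0.42), Tuba1b (0.40) and Tubb5 (0.39). Hmgb2 is a chromatin protein, Mki67 a marker of dividing cells, Top2a a topoisomerase of chromosome separation, and the other two are tubulins. Mki67 and Top2a are genes of the G2/M list, so their place here is not separate from the G2/M bins and states. These r values describe the cells and share depth; in cells thinned to 500 UMIs they were 0.20 to 0.23. For Hist1h2bc the 5 highest were Ifi27l2a, Vim, Hist1h1c, Myl12b and Tmem50a at 0.077 to 0.087, which is near 0. Between classes at 1000 UMIs, H1 and H2A sums had r = 0.43, H2A and H4 0.22, and every pair with H2B or H3 was at most 0.11. With the S list, r was 0.16 for H2A, 0.045 for H1, 0.034 for H4, 0.017 for H3 and -0.014 for H2B. With the G2/M list, r was 0.44 for H2A, 0.24 for H1, 0.15 for H4, 0.077 for H2B and 0.057 for H3.

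In S-high cells, transcripts of some H2A and H1 genes rose over cells high in neither list while Hist1h2bc fell. H2A summed to a median of 1357 CPM (909 to 1971) in S-high cells and 930 CPM (574 to 1392) in cells high in neither, and was higher in 15 of 16 libraries, with ranges that overlap. H1 was at 384.2 CPM (125 to 751) in S-high cells and 290 CPM (151 to 690) in cells high in neither, higher in 12 of 16. H4 was at 105 against 84.7 CPM, H2B without Hist1h2bc at 31.5 against 36.9 CPM and H3 at 18.04 against 10.6 CPM, with S-high cells higher in 9, 8 and 11 of 16 libraries. Captured RNA was also higher, at 2053 UMIs per S-high cell by median and 1676 per cell high in neither.

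Of the 12 histone genes tested, 4 rose and 1 fell, where 3.46% of 7204 genes rose and 3.32% fell (6.77% in all) by edgeR's quasi-likelihood test (adjusted p under 0.05, sums per library and state, library as block). Scaled by total UMIs, 369 genes rose and 128 fell, against 249 and 239 as reported. Hist1h2ao was at 1108 CPM (752 to 1706) in S-high cells and 716 CPM (467 to 1071) in cells high in neither, a log2 fold change of 0.62 ± 0.06 (SE, edgeR adjusted p = 3.46e-17). Hist1h1b was at 138 CPM (10.5 to 287) in S-high cells and 72.0 CPM (5.81 to 165) in cells high in neither, higher in 14 of 16 libraries (log2 fold change 1.00 ± 0.16, edgeR adjusted p = 4.45e-07). Hist1h1a (0.98 ± 0.26) and Hist1h2ap (0.67 ± 0.19) also rose, with edgeR adjusted p of 0.00631 and 0.0144. The Hist1h2ap call was lost without library 7 (edgeR adjusted p = 0.0521), without a filter on low counts (0.0671) and within SB341 (0.149) or SB343 libraries (0.328). The Hist1h1a call was lost with states cut from cells thinned to 500 UMIs (0.70, edgeR adjusted p = 0.110). The abundant linker gene Hist1h1e was at 142 CPM (10.4 to 261) in S-high cells and 133 CPM (49.6 to 321) in cells high in neither, a difference of -0.10 ± 0.14 that did not pass the test; its 95% interval ran from -0.37 to 0.16. The spread over libraries was wider than edgeR's SE for Hist1h2ao: the mean log2 ratio of library pairs was 0.69 with SE 0.11 over 16 libraries, and an exact two-sided permutation test over library pairs gave p = 6.1e-05.

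Hist1h2bc was at 21.2 CPM (5.63 to 57.5) in S-high cells and 107 CPM (49.6 to 193) in cells high in neither, and was lower in 15 of 16 libraries. Its log2 fold change of -2.33 ± 0.21 (edgeR adjusted p = 2.83e-17) means that S-high cells had 0.199 times the level. The ranges overlapped only between 49.6 and 57.5 CPM.

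In cells high in both lists, genes of the H1, H2A and H4 classes rose and Hist1h2bc fell. H2A was at 3407 CPM (1753 to 5094) in S- and G2/M-high cells and 873 CPM (574 to 1231) in cells high in neither, over the 14 libraries with at least 10 such cells, and the ranges did not overlap. H1 was at 811 CPM (100 to 1878) against 265 CPM (151 to 635) and H4 at 209 CPM (77.8 to 400) against 79.4 CPM (43.0 to 148), each higher in 13 of 14 libraries. H3 was at 65.1 CPM (0 to 133) against 10.3 CPM (0 to 34.2), higher in 10 of 14. H2B without Hist1h2bc was at 51.0 against 36.9 CPM and higher in 9 of 14.

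Of 11 histone genes tested in this comparison, 8 rose and 1 fell, where 2.11% of 5791 genes rose and 5.47% fell (7.58% in all) by the same test. Scaled by total UMIs, 212 genes rose and 94 fell, and with DESeq2's size factors 165 and 199, against 122 and 317 as reported. The median log2 fold change of all genes was -0.14 as reported and 0.04 by total UMIs. Hist1h2ao was at 2811 CPM (1434 to 4222) in S- and G2/M-high cells and 703 CPM (467 to 958) in cells high in neither, without overlap (log2 fold change 1.79 ± 0.07, edgeR adjusted p = 3.2e-55). Its spread over libraries was wider than edgeR's SE. The mean log2 ratio of its 14 library pairs was 1.98 with SE 0.16. The exact two-sided permutation test gave p = 0.00012, the smallest it can give here. The 3 H2A genes and 3 H1 genes that rose lay between 1.30 (Hist1h1e) and 1.98 (Hist1h1a), and the H4 genes Hist1h4d and Hist1h4i at 1.44 ± 0.35 and 1.08 ± 0.30. The Hist1h4i call was lost with states cut from cells thinned to 500 UMIs (0.47, edgeR adjusted p = 0.470), without a filter (0.0850) and within SB341 libraries (0.240). Hist1h1c (0.59 ± 0.27) and Hist1h1d (0.87 ± 0.39) did not pass. Hist1h2bc had no UMI in these cells in 8 of 14 libraries and reached 69.8 CPM in the highest, against 107 CPM (49.6 to 193) in cells high in neither (log2 fold change -3.26 ± 0.38, edgeR adjusted p = 1.54e-12). The median depth was 2695 UMIs here and 1676 in cells high in neither. No doublet caller was run, and the part of wells with more than 1 cell was not tested.

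In G2/M-high cells, whose S list level was 2095 CPM against 2490 CPM in cells high in neither and lower in 15 of 16 libraries, the family was also higher. H2A was at 2222 CPM (1601 to 2794) in G2/M-high cells and 930 CPM (574 to 1392) in cells high in neither, and the ranges did not overlap. H1 was at 606 CPM (238 to 1138) against 290 CPM (151 to 690) and H4 at 162 CPM (104 to 232) against 84.7 CPM (43.0 to 148), each higher in 16 of 16 libraries. H2B without Hist1h2bc was at 69.9 against 36.9 CPM and H3 at 37.1 against 10.6 CPM, each higher in 15 of 16. All 5 classes were thus higher in at least 15 of 16 libraries.

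Of 14 histone genes tested, 10 rose and 1 fell in G2/M-high cells, where 3.98% of 7741 genes rose and 3.93% fell (7.91% in all). Scaled by total UMIs, 373 genes rose and 183 fell, against 308 and 304 as reported. Hist1h2ao was at 1820 CPM (1317 to 2293) in G2/M-high cells and 716 CPM (467 to 1071) in cells high in neither (log2 fold change 1.27 ± 0.06, edgeR adjusted p = 2.49e-38). DESeq2's Wald test gave it a wider SE of 0.12 (adjusted p = 1.7e-23). Hist1h1e was at 305 CPM (98.3 to 456) against 133 CPM (49.6 to 321) and higher in 15 of 16 libraries (0.99 ± 0.10, edgeR adjusted p = 1.21e-13). Hist1h1b, Hist1h1d and Hist1h1a changed by 1.13, 0.93 and 0.80, the H2A genes Hist1h2ap, Hist1h2an and Hist1h2ae by 1.34, 1.22 and 1.12, and Hist1h4d and Hist1h4i by 1.32 and 0.70. The Hist1h1a call was lost without any one of libraries 1, 3, 4, 9, 12 or 15 and also with DESeq2 (adjusted p = 0.0918), without a filter (0.0572), without the library block (0.108) and within SB343 libraries (0.319). The Hist1h4i call was lost without library 1, with cells thinned to 1000 UMIs (0.52, edgeR adjusted p = 0.403) and within SB341 (0.113) or SB343 libraries (0.537). Hist1h1d was lost without the block (0.0659) and within SB343 libraries (0.35, edgeR adjusted p = 0.627), and Hist1h2an without the block (0.0738) and with states cut from cells thinned to 500 UMIs (0.71, edgeR adjusted p = 0.226). Hist1h1c, Hist1h2ak and Hist3h2a did not pass (0.43 ± 0.16, 0.44 ± 0.26 and 0.58 ± 0.30). Hist1h2bc was at 60.2 CPM (10.4 to 107) in G2/M-high cells and 107 CPM (49.6 to 193) in cells high in neither, lower in 14 of 16 libraries (-1.09 ± 0.16, edgeR adjusted p = 6.67e-08). Median UMIs per cell were 2529.5 in G2/M-high cells and 1676 in cells high in neither.

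Hist1h1e, Hist1h4d and Hist1h4i were not past the test in S-high cells and were past it in the other states, for Hist1h4i with the losses named above; whether the states themselves differ was not tested. An exact two-sided permutation test of the log2 ratio of each library's pair of sums was added after the data were seen and run for the 12 genes with at least 200 UMIs. With every cell thinned to 1000 UMIs, so that depth was equal, 6, 5 and 8 histone genes were tested in S-high, S- and G2/M-high and G2/M-high cells, of which 3, 3 and 5 rose and 2, 1 and 1 fell. Of all genes, 109 of 4201, 34 of 2848 and 134 of 4340 rose there, and 201, 245 and 182 fell. The log2 fold changes of Hist1h2ao were 0.80 in S-high, 2.11 in S- and G2/M-high and 1.66 in G2/M-high cells, and those of Hist1h2bc -2.39, -3.30 and -1.34, each past the edgeR test. The other gene that fell was Hist1h1c in S-high cells (-0.86 ± 0.29, edgeR adjusted p = 0.0489), and Hist1h4i in G2/M-high cells did not pass. The permutation tests were run on no gene outside the family, so no share over all genes stands beside their counts. The 3 states were also set against the same cells high in neither, so their tests are not separate results. Over the 3 states, 32 of 36 permutation tests gave an unadjusted p under 0.05, 28 higher and 4 lower. Of the lower ones 3 were Hist1h2bc and the other was Hist1h1c in S-high cells, at 50.6 CPM (10.4 to 101) against 52.6 CPM (19.4 to 117) in cells high in neither, lower in 12 of 16 libraries (p = 0.033; edgeR adjusted p = 0.0792).

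**Figure D3:**
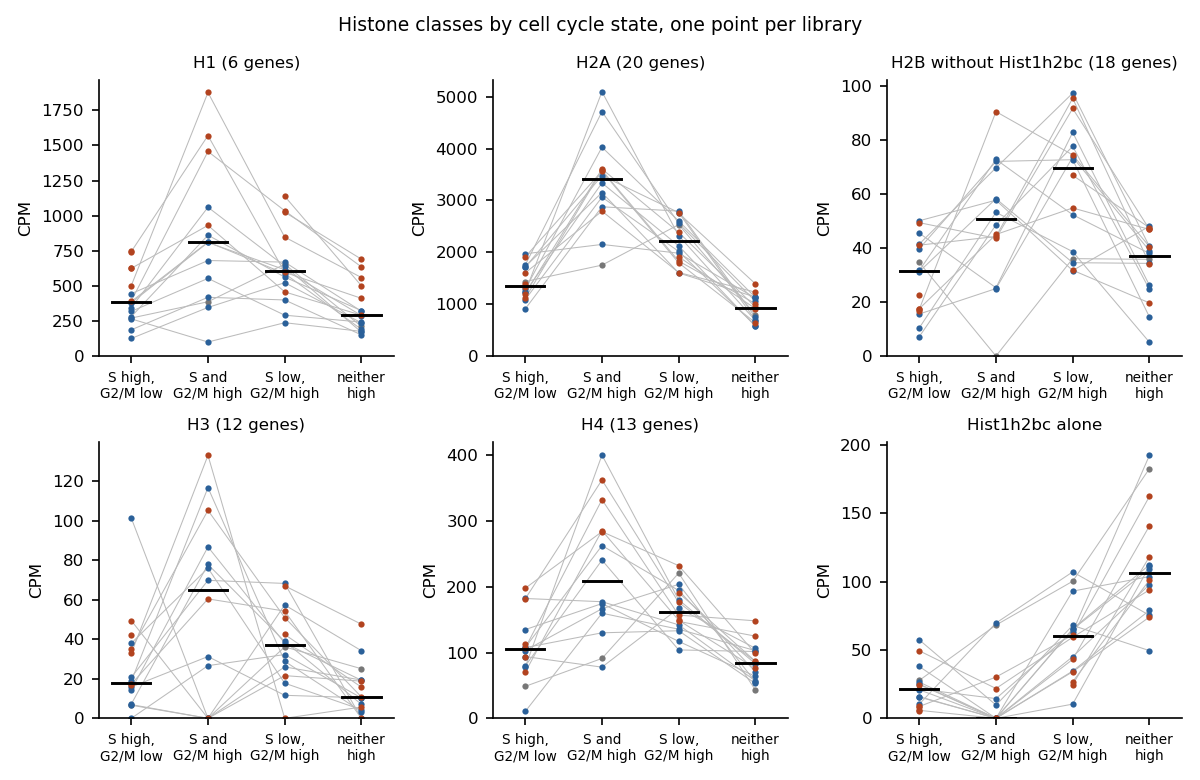
Summed level in CPM of each histone class and of Hist1h2bc by cell cycle state, one point per library with at least 10 cells in the state (red SB343, blue SB341, grey library 1), grey lines joining a library's states and black bars the medians. H2A medians are 1357, 3407 and 2222 CPM in the S-high, doubly high and G2/M-high cells and 930 CPM in cells high in neither, and Hist1h2bc is highest in cells high in neither.

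**Figure D4:**
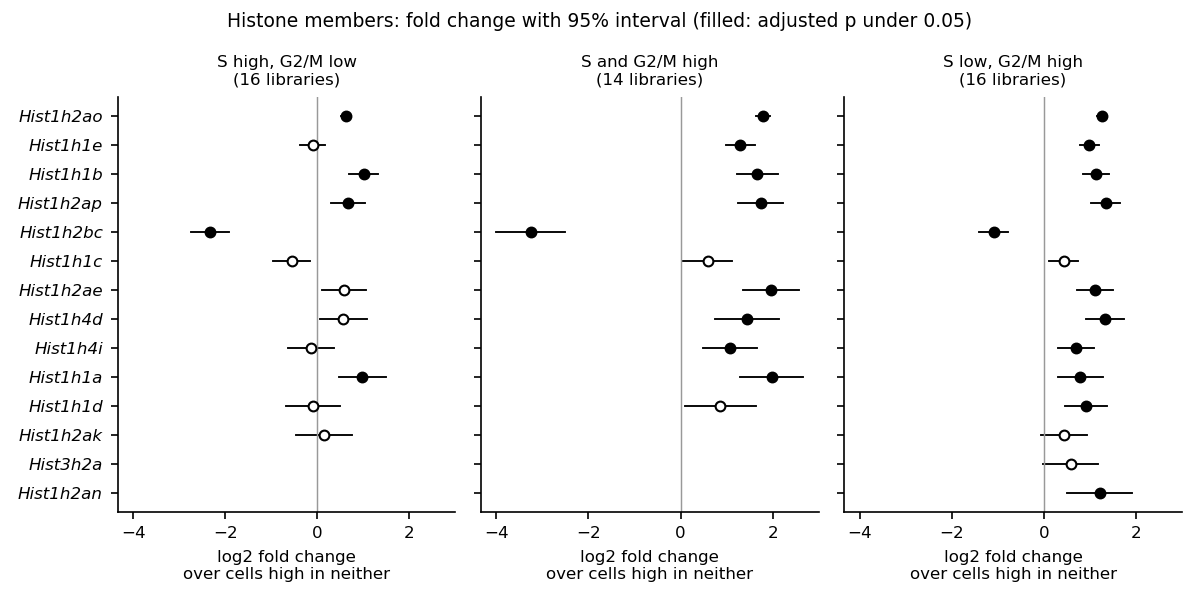
Log2 fold change of each tested histone gene in the 3 states over cells high in neither list, with 95% intervals from edgeR's SE; filled points have an adjusted p under 0.05. Hist1h2bc lies at -2.33, -3.26 and -1.09, and Hist1h2ao at 0.62, 1.79 and 1.27.

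Hist1h2bc was set against each of the 11 other genes with at least 200 UMIs in each state by an exact two-sided sign-flip permutation test over libraries. The 11 pairs of a state share the same Hist1h2bc ratio and the same cells high in neither, so the pairs are not separate results. Hist1h2bc was set apart with earlier results of these data known, so the pairs describe it and lend that choice no support. In all 33 pairs the log2 ratio to cells high in neither was lower for Hist1h2bc, with mean differences of -1.503 to -4.72, and p adjusted over the 33 pairs was at most 0.000366. These ratios had 0.5 UMIs added to each sum; with 1 UMI added the differences were -1.45 to -4.07 with adjusted p of at most 0.000244, and the mean log2 ratio of Hist1h2bc itself in S- and G2/M-high cells, where 8 of 14 libraries were at 0, was -1.91 in place of -2.60. Of these 11 genes the nearest was the H1 gene Hist1h1c, at -1.503 in G2/M-high cells and -1.74 in S-high cells, with Hist1h2bc below it in 15 of 16 libraries each time. Hist3h2a, with 180 UMIs, was below the cut for this test. Without a filter on low counts it changed by -1.76 in S-high cells (edgeR adjusted p = 0.0116), and Hist1h2bc by -2.38. With states cut from cells thinned to 500 UMIs it changed by -1.86 there (edgeR adjusted p = 0.00509), and Hist1h2bc by -2.05. In G2/M-high cells Hist3h2a changed by 0.58 and did not pass. Hist1h2bc is annotated with a model of 1156 bases without the stem-loop letters at chr13:23684199-23692908 (GRCm38); that model is spliced.

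2 histone genes outside the rule, chosen after their values were seen, moved in both ways. H1f0, the linker histone made independently of replication, changed by -1.13 ± 0.22 in S-high cells and 0.47 ± 0.16 in G2/M-high cells. H2afx, the H2A variant of DNA damage signalling, which carries both a stem-loop and a poly(A) form, changed by 0.93 ± 0.16 in S- and G2/M-high cells and 1.59 ± 0.08 in G2/M-high cells (edgeR, adjusted p under 0.05 for all 4).

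Of the chaperones that carry histones to DNA, 8 of 14 rose in S-high cells, and none of 12 tested genes that make and trim histone mRNA passed. Of all genes 3.46% rose and 3.32% fell there, and no chaperone fell; the chaperones had a median log2 fold change of 0.29, against -0.03 for all genes. Those that rose were Asf1b (0.90 ± 0.22) and Nasp (0.69 ± 0.11), which hold H3 and H4, the CAF-1 subunits Chaf1a (0.88) and Chaf1b (0.67), the H4 acetylating enzyme Hat1 (0.66) and its partner Rbbp7 (0.27), Mms22l (0.74), which acts at replication forks, and the FACT subunit Ssrp1 (0.28). In S- and G2/M-high cells Asf1b (1.36) and Hat1 (0.64) rose and Tonsl (-0.88), the partner of Mms22l, fell, 2 and 1 of 14, where 2.11% of genes rose and 5.47% fell. In G2/M-high cells Asf1b (0.84) rose while Chaf1b (-1.03) and Nasp (-0.58) fell, 1 and 2 of 14, where 3.98% of genes rose and 3.93% fell. Of the processing genes, 0 of 12, 1 of 11 and 0 of 13 tested passed in the 3 states, where 6.77%, 7.58% and 7.91% of all genes passed. That gene was Eri1, an exonuclease that trims histone mRNA ends, at 0.85 ± 0.24 in S- and G2/M-high cells; Slbp, which binds the stem-loop, was at 0.47 ± 0.26 in S-high cells (edgeR adjusted p = 0.332).

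Summed histone levels of the lineage gates overlapped those of ungated cells. A cell with at least 2 UMIs of 1 of 4 lists of 8 lineage genes, and of no other, was gated: 168 cells as stem (Mecom, Hlf, Procr and others), 699 as granule gene cells (Mpo, Elane, Ctsg and others), 491 as lymphoid (Dntt, Il7r, Rag1 and others) and 240 as megakaryocyte and erythroid (Gata1, Pf4, Klf1 and others). They were set against 2109 ungated cells. The 69 genes summed to a median of 1940 CPM (214 to 4033) in stem-gated cells, against 2326 CPM (1961 to 3077) in ungated cells of the same 10 libraries. In granule and lymphoid cells they stood at 2266 CPM (470.1 to 3203) and 2061 CPM (1170 to 3449), against 2421 CPM (1961 to 3099) in ungated cells of 16 libraries. In megakaryocyte and erythroid cells they stood at 2439 CPM (1010 to 3597), against 2507 CPM (2203 to 3099) in ungated cells of 13 libraries. All these ranges overlap, and gated cells were lower in 6 of 10, 9 of 16, 10 of 16 and 7 of 13 libraries.

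The tests called few histone genes lower and none higher in the gates. In stem-gated cells 1 of 12 tested fell, where 0.952% of genes fell and 0.0539% rose (1.01% in all); in granule cells 2 of 14, where 0.581% fell and 0.366% rose (0.948%); in lymphoid cells 2 of 14, where 2.18% fell and 1.16% rose (3.35%); and in megakaryocyte and erythroid cells 1 of 12, where 7.04% fell and 0.865% rose (7.9%). Scaled by total UMIs, 3 genes rose and 3 fell in stem, 40 and 37 in granule, 114 and 116 in lymphoid and 137 and 154 in megakaryocyte and erythroid cells. With DESeq2's size factors these counts were 7 and 3, 40 and 32, 132 and 103, and 103 and 212, against 3 and 53, 29 and 46, 88 and 165, and 57 and 464 as reported. The normalization moved the median log2 fold change of all genes to -0.29 in stem, -0.07 in granule, -0.10 in lymphoid and -0.18 in megakaryocyte and erythroid cells, so these calls are to be read against that shift.

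Hist1h2ao was the gene called in all 4 gates, at -0.52 ± 0.11, -0.24 ± 0.06, -0.24 ± 0.05 and -0.38 ± 0.08 in the order above (edgeR adjusted p = 0.00137, 0.00879, 0.000437 and 6.45e-05). It was at 1202 CPM (53.5 to 2705) in stem-gated cells, against 1424 CPM (1067 to 1638) in ungated cells of the same libraries, lower in 6 of 10. In megakaryocyte and erythroid cells it was at 1110.4 CPM (421 to 2402), against 1434 CPM (1269 to 1640), lower in 7 of 13, and in granule cells at 1267 CPM (181 to 1877), against 1404 CPM (1067 to 1640), lower in 10 of 16. In lymphoid cells it was at 1192 CPM (641 to 1854), against 1404 CPM (1067 to 1640) in ungated cells, lower in 11 of 16 libraries. Hist1h1e fell in granule cells, at 149 CPM (19.4 to 412) against 216 CPM (61.8 to 383) in ungated cells (-0.44 ± 0.12, edgeR adjusted p = 0.0183), and in lymphoid cells, at 159 CPM (42.7 to 417) against 216 CPM (-0.56 ± 0.13, edgeR adjusted p = 0.00123). It was lower in 13 and 12 of 16 libraries. None of these 6 calls held with DESeq2 or without the library block. Over library pairs, 2 of 48 exact two-sided permutation tests in the gates had an unadjusted p under 0.05. They were Hist1h1e in lymphoid (p = 0.00894) and granule cells (p = 0.0249), and Hist1h2ao had p of 0.0921 to 0.266. A count of 2 of 48 is no more than a cut of 0.05 lets through where nothing differs. The stem call was also lost without any one of libraries 1, 7 or 10, the Hist1h2ao call in granule cells without any one of 3, 4, 9, 11 or 14, and the Hist1h1e call there without any one of 3, 4, 6, 7, 9, 11 or 13. Hist1h2bc was not called in any gate, with log2 fold changes of -0.59 ± 0.50, 0.12 ± 0.20, 0.26 ± 0.22 and 0.22 ± 0.31.

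Cell cycle make-up differed between gates. Of stem-gated cells 63.1% were high in neither list, against 48.2% of ungated cells, and 13.1% were G2/M-high, against 22.5%. Within a state, pooled over libraries and with no test, the 69 genes stood at 831 CPM in the 106 stem-gated cells high in neither list and 2502 CPM in the 22 that were G2/M-high. In lymphoid cells the same values were 1192 and 2811 CPM, in megakaryocyte and erythroid cells 1233 and 3070 CPM and in granule cells 1750 and 2737 CPM. In ungated cells they were 1337 and 3578 CPM. Among cells high in neither, granule cells were above ungated cells and the other gates below. Among G2/M-high cells, every gate was below ungated cells. G2/M-high cells were thus higher than cells high in neither in each gate.

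Of 14 chaperones tested in each gate, Npm1 (-0.42) and Rbbp4 (-0.93) fell in stem-gated cells, where 0.952% of genes fell. Chaf1a (-1.23) fell in lymphoid cells, where 2.18% of genes fell, and Rbbp7 (-0.73) in megakaryocyte and erythroid cells, where 7.04% fell. No chaperone was called in granule cells, where 0.948% of genes were called, and no processing gene was called in any gate.

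Linker histone transcripts differed between the sequencing batches. The deposited well table names batch SB343 for 6 libraries and SB341 for 9, and gives none for library 1. H1 was at 731 CPM (447 to 807) in SB343 libraries and 395 CPM (204 to 450) in SB341 libraries, ranges that overlap only at 447 to 450 CPM. Hist1h1b was at 214 CPM (137 to 235) in SB343 and 90.5 CPM (38.0 to 111) in SB341 libraries, without overlap. Hist1h2ao was at 1161 CPM (1092 to 1328) in SB343 and 1235 CPM (1083 to 1482) in SB341 libraries, with no such gap.

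In a comparison added after the data were seen, 6 of 15 histone genes tested were higher in SB343 and none lower, where 4.27% of 9068 genes were higher and 7.81% lower (387 and 708 genes; 575 and 600 when scaled by total UMIs). They were Hist1h1b (1.20 ± 0.16, edgeR adjusted p = 3.23e-06), all other H1 genes tested, Hist1h1a, Hist1h1c, Hist1h1e and Hist1h1d at 0.74 to 0.80, and the H2A gene Hist1h2ae at 0.78 ± 0.18. Hist1h2ao (-0.16 ± 0.09) and Hist1h2bc (-0.26 ± 0.19) were not called. Hist1h1c was lost without library 11 (adjusted p = 0.0578) and Hist1h1d without library 12 (0.0525). H1 medians also differed among cells of 1 state, with ranges that overlap. In cells high in neither, H1 was at 530 CPM (291 to 690) in SB343 and 237 CPM (151 to 324) in SB341 libraries. In G2/M-high cells it was at 936 CPM (457 to 1138) against 563 CPM (238 to 669). Hist1h2ao was at 777 CPM (518 to 1071) against 592 CPM (467 to 943) in cells high in neither. In G2/M-high cells Hist1h2ao went the other way, at 1499 CPM (1317 to 2077) against 1969 CPM (1404 to 2293), also with overlap. The G2/M list moved with the batch, at 3300 CPM (3025 to 3630) in SB343 and 2627 CPM (1968 to 2871) in SB341 libraries, as did mature lineage genes, at 42.6 CPM (28.6 to 55.3) against 19.4 CPM (11.02 to 37.8); their part in the H1 result was not tested. Batch, recipient, sort and genotype mix cannot be told apart here.

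**Figure D5:**
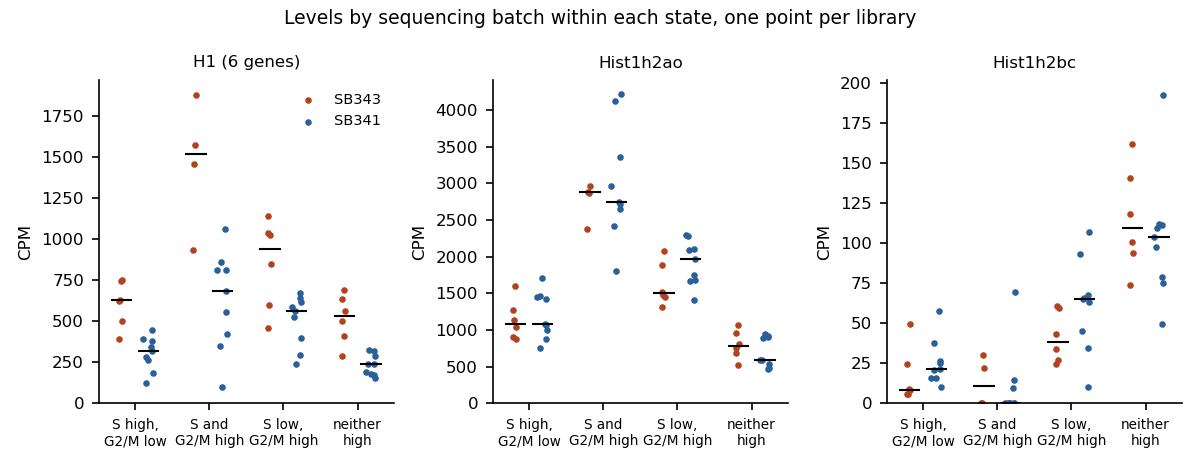
Level in CPM of H1, Hist1h2ao and Hist1h2bc in SB343 (red) and SB341 (blue) libraries within each cell cycle state, one point per library and bars for medians. In cells high in neither list, H1 medians are 530 and 237 CPM and Hist1h2ao medians 777 and 592 CPM. The ranges of the batches overlap in each state for both.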

How the data were processed

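The authors deposited raw UMI counts per gene and well for 16 MARS-seq libraries of LSK cells and a well table, demultiplexed with bcl2fastq 2.15.0.4 and mapped to mm10, per the submitters' processing notes; the aligner, strand use and annotation version were not given in the sources used here. Histone genes and all lists were chosen with earlier results of these data known. CPM were computed over all UMIs of kept cells without ERCC spike-ins; 86 wells were over the mitochondrial limit. Counts were summed per library and state or gate, with at least 10 cells on both sides, and tested with edgeR 4.0.16 (R 4.3.3): TMM scaling, genes with at least 100 UMIs, library as block, quasi-likelihood test, Benjamini-Hochberg adjustment at 0.05; genes of the lists that cut the cells were left out. The block pairs sums of the same library. Single values were tested by exact sign-flip permutation over libraries (SciPy 1.17.1). Histone genes with at least 100 UMIs were named, with list genes that passed a test (at most 10 by size) and the 5 genes most like the family or Hist1h2bc; H1f0, H2afx, Hist1h1t, Slbp and Gm44346 were chosen after their values were seen. Counting limits cover counting error only. No doublet caller was run. Scripts were tested on simulated data.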

Additional observations from a re-analysis of the deposited data

How the results depend on the processing

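Counts over all genes and over histone genes are given in the order S-high, S- and G2/M-high, G2/M-high, stem, granule, lymphoid, megakaryocyte and erythroid cells; as reported they were 488, 439, 612, 56, 75, 253 and 521 genes with 5, 9, 11, 1, 2, 2 and 1 histone genes. Hist1h2ao, Hist1h1b and Hist1h2bc kept direction and call in all 3 states under every alternative that gave a value, and Hist1h1e did in S- and G2/M-high and in G2/M-high cells. Where a count moved by over 1.5 times, the cause was not tested unless fewer libraries, cells or genes entered.

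With cells thinned to 1000 UMIs the counts were 310, 279, 316, 6, 37, 129 and 258 genes, with 4 histone genes in S- and G2/M-high, 6 in G2/M-high and 1 in lymphoid cells and 0 in the other 3 gates. With gates cut at 500 UMIs they were 4 genes in stem, 117 in granule, 619 in lymphoid and 166 in megakaryocyte and erythroid cells, with 0 histone genes in granule and in megakaryocyte and erythroid cells. With all cells above the library median called high, 833 genes passed in S- and G2/M-high cells. With at least 3 UMIs of a lineage list, lymphoid cells had 458 genes and megakaryocyte and erythroid cells 172, and granule and megakaryocyte and erythroid cells 0 histone genes. Among cells high in neither list the 4 gates had 2, 10, 38 and 3 genes and 0 histone genes, and Hist1h2ao turned to 0.12 in granule cells (edgeR adjusted p = 0.929) and 0.46 in megakaryocyte and erythroid cells (edgeR adjusted p = 0.738).

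DESeq2's Wald test called 265 genes in S-high, 385 in G2/M-high, 6 in stem and 251 in megakaryocyte and erythroid cells, and 0 histone genes in each gate. Its size factors in edgeR gave 10 genes in stem and 315 in megakaryocyte and erythroid cells, with 1 histone gene in lymphoid cells and 0 in the other 3 gates. Scaling by total UMIs gave 6 in stem and 291 in megakaryocyte and erythroid cells, with 1 histone gene in granule cells and 0 in both stem and megakaryocyte and erythroid cells. Without a filter beyond 1 UMI there were 722 genes in S- and G2/M-high, 607 in stem, 118 in granule, 638 in lymphoid and 1060.0 in megakaryocyte and erythroid cells, and 3 histone genes in stem cells. With edgeR's filterByExpr 5 histone genes passed in S- and G2/M-high and 5 in G2/M-high cells, 5 genes passed in stem, 157 in lymphoid and 232 in megakaryocyte and erythroid cells, and histone genes numbered 1 in lymphoid and 0 in the other 3 gates.

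Without the library block, 185, 234 and 315 genes passed in the 3 states, 2 in stem and 39 in granule cells, and 0 histone genes in each gate; the replicate block changed no histone call in the states other than those of Hist1h1a, Hist1h1d and Hist1h2an in G2/M-high cells (edgeR adjusted p without it 0.108, 0.0659 and 0.0738). In SB341 libraries alone the counts were 218, 202, 323, 7, 18, 108 and 38 genes, with 3 histone genes in S-high, 5 in S- and G2/M-high and 0 in each gate. In SB343 libraries alone they were 98, 44, 179, 0, 38, 29 and 208, with 3, 4 and 7 histone genes in the states and 0 in each gate, and Hist1h2ao in stem cells, over 2 libraries, turned to 0.14 (edgeR adjusted p = 0.984).

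Leaving out 1 library at a time gave 399 to 487, 365 to 415, 530.0 to 605, 10 to 92, 56 to 85, 215 to 247 and 374 to 445 genes, and 4 to 6, 9 to 9, 8 to 11, 0 to 1, 0 to 2, 2 to 2 and 1 to 1 histone genes; between batches it gave 909 to 1114 genes and 5 to 7 histone genes. As a mean over cells of each cell's CPM, the median levels were 1677 CPM for the 69 genes, 1132 for H2A and 101 for Hist1h2bc, and with mitochondrial rows left out of the total H2A was at 1638 CPM. The 47 genes with 1 to 99 UMIs were below the filter of the reported tests. Without it 60, 60 and 62 histone genes were tested in the 3 states, of which 3, 9 and 11 were higher and 2, 1 and 1 lower. Of all genes, 140 of 20564, 74 of 19505 and 270 of 21061 were higher, and 266, 648 and 326 were lower. The 2 histone genes lower in S-high cells were Hist1h2bc and Hist3h2a.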
